A study of Homo sapiens with 6 samples.

Results

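The 37 genes of the human mitochondrial genome were followed in RNA-seq libraries given as MDA-MB-231 cells, a human breast cancer line that the study classes as mesenchymal/basal-like. The members were all genes whose GENCODE symbol starts with MT-, which gave 13 protein genes, 2 rRNA genes and 22 tRNA genes of the 58302 genes in the count tables. The 3 control libraries came from cells expressing a control shRNA, and the other 3 from cells expressing Smyca shRNA #1, which is directed against the lncRNA Smyca (MIR23AHG). The study's methods name pLKO.1 as the vector of the Smyca shRNAs, and both groups were otherwise grown alike as far as the labels say. The study calls the 3 libraries of a group biological repeats, while the labels do not say whether these were separate infections, so the p-values below measure the spread between the libraries of a group.

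Human mitochondrial DNA is a small circle that is read from both strands into long transcripts covering many genes. The tRNAs lie between most of the protein and rRNA genes, and their excision by RNase P and RNase Z frees the mRNAs and rRNAs. The protein genes encode subunits of the respiratory chain and of ATP synthase, which assemble with a larger number of nuclear-encoded subunits, and the 2 rRNAs and 22 tRNAs serve their translation inside the organelle. MT-ND6 is the only protein gene that lies on the minus strand of the reference, and its 12 companions lie on the plus strand.

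The mitochondrial genome of the GRCh38 reference has 16569 bases, and its genes have almost no space between them. MT-ATP8 and MT-ATP6 share 46 bases on the plus strand, at chrM:8527-8572, so that reads over this stretch overlap both genes. MT-ND4L and MT-ND4 share 7 bases. The stretch around this second overlap is shown with its shared bases in capitals, and the starts of MT-CO1, the highest protein gene per length, and of the much lower MT-ND5 and MT-ND6 are shown with the start codon in capitals. All are written 5′ to 3′ on the strand of the gene, from the GRCh38 genome.
MT-ND4L/MT-ND4 (chrM:10750-10776, plus): acctactccaATGCTAAaactaatcgt
MT-CO1 (chrM:5904-5933, plus): ATGttcgccgaccgttgactattctctaca
MT-ND5 (chrM:12337-12366, plus): ATAaccatgcacactactataaccacccta
MT-ND6 (chrM:14644-14673, minus): ATGatgtatgctttgtttctgttgagtgtg
MT-CO1 encodes the catalytic subunit of complex IV, and MT-ND5 and MT-ND6 encode membrane subunits of complex I. MT-ND5 starts with ATA, which mitochondria read as methionine, and the ends of MT-ND5 and MT-ND6 meet on opposite strands with 0 bases between them.

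Total counts ran from 14999307 to 16501085 per library. Smyca itself was at 25.0, 19.5 and 22.0 normalized CPM (counts scaled to the TMM library size) in control repeats 1 to 3 and at 10.5, 6.97 and 5.61 CPM in knockdown repeats 1 to 3. The groups did not overlap, and the log2 fold change of control over knockdown was 1.53 (SE 0.26, edgeR adjusted p = 0.111). The markers used to check the cell line did not give a plainly mesenchymal profile. Of the mesenchymal/basal markers, VIM was at 148 to 305 CPM in the control and at 71.2 to 130 CPM in the knockdown. Over all libraries, CAV1 was at 27.9 to 101, AXL at 18.1 to 51.1 and CD44 at 9.31 to 37.2. Of the luminal/epithelial markers, PGR was at 0 counts in all 6 libraries, ESR1 was at most 0.192 CPM, FOXA1 at most 0.132 and GATA3 at most 3.86, whereas EPCAM was at 236 to 336 CPM, CDH1 at 71.5 to 300 and ERBB3 at 91.7 to 132. KRT18, a keratin of simple epithelia that had been listed with the mesenchymal/basal markers, was at 987 to 1379 CPM. EPCAM, CDH1 and ERBB3 each stood above AXL and CD44 in every library, which goes against the mesenchymal class. The identity of the line was not tested. As a check for duplicate deposits of a library, the counts of each pair of a group were compared, and the chi-square per degree of freedom of 17.3 to 93.0 showed no such pair. In 5 libraries the deposited FPKM followed from the counts, whereas in control repeat 2 only 342 of 21083 genes came within 1% of it. The main measures of the MT genes are therefore also given with the reads recovered from its FPKM values and, since control repeat 3 stood apart in its MT share, without that library. Values of Smyca, the nuclear copies and the other nuclear genes come from the count columns of all 6 libraries only.

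Counts on the MT genes made up 1.78%, 1.99% and 4.99% of all counts in control repeats 1, 2 and 3, and 2.62%, 2.35% and 2.72% in knockdown repeats 1, 2 and 3. Control repeat 3 stood above the other 5 libraries, and control repeats 1 and 2 stood below all 3 knockdown libraries. The 95% Wilson interval of control repeat 3, 4.982% to 5.004%, covers counting error only and is far narrower than the distance between libraries. The share was 2.92% ± 1.80 (SD, n = 3) in the control and 2.56% ± 0.193 (SD, n = 3) in the knockdown. This difference of 0.359 percentage points gave p = 1.0 in a two-sided exact permutation test, for which 0.1 is the smallest p that 3 against 3 libraries allow. Without control repeat 3 the difference was -0.677 percentage points, with the opposite direction. The whole reads recovered from the FPKM values of control repeat 2 put its share at 4.86%, close to control repeat 3, and the control mean then came to 3.88% ± 1.82. Which of the 2 columns belongs to the RNA of control repeat 2 was not tested. In bulk RNA, more mitochondrial transcript per cell and less nuclear-encoded RNA per cell cannot be told apart.

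**Figure D1:**
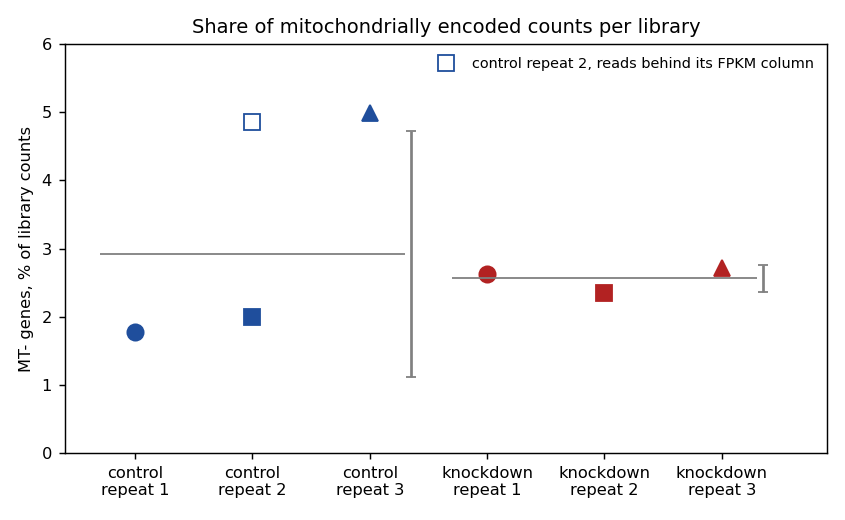
Share of each library's counts that fell on the MT genes, in percent (filled symbols; circle, square and triangle for repeats 1, 2 and 3), with grey lines for the group means and bars for the SD. Control repeat 3 sits at 4.99% against 1.78% to 2.72% in the other 5 libraries, and the open square puts control repeat 2 at 4.86% when its FPKM column is used.

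Of the 37 members, 16 had counts and all 16 passed the filter on low counts. The other 21, all tRNA genes, were listed at 0 counts in every library, which allows at most 0.182 to 0.200 CPM each when 3 counts are taken as the limit. The tRNA genes have 59 to 75 bases and are shorter than the 150-base reads. MT-TP, the proline tRNA gene on the minus strand, was the only one with counts: 9, 7 and 19 in control repeats 1 to 3, and 15, 13 and 8 in knockdown repeats 1 to 3. Its groups overlapped, and the tRNA share of the MT counts gave p = 0.7 in the two-sided exact permutation test.

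Levels per length spanned a wide range among the genes of the plus strand. On the RPKM scale (counts scaled by gene length and library total), the median over the 6 libraries was 7543 for MT-CO1, 4307 for MT-CO3, 4229 for MT-CO2 and 2498 for MT-ATP6. MT-CO1 was above MT-CO3 or MT-CO2, and both were above MT-ATP6, in all 6 libraries, while MT-CO3 was above MT-CO2 in only 3 of 6. The complex I genes MT-ND1, MT-ND3, MT-ND2, MT-ND4 and MT-ND4L followed at 1633, 1393, 1251, 939 and 435 RPKM. Of these neighbours, MT-ND3 was above MT-ND2 in 5 libraries and the rest kept their order in all 6.

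Below these came a second tier. MT-RNR2, the rRNA of the large mitochondrial ribosome subunit, had a median of 128 RPKM, MT-CYB of 84.1, MT-ND6 of 42.9, MT-ND5 of 40.3 and MT-RNR1, the rRNA of the small subunit, of 20.6. Thus MT-CO1 was 89.7 times as high as MT-CYB and 187 times as high as MT-ND5 by median RPKM, although all 3 lie on the plus strand. MT-CYB ran from 24.6 to 148 RPKM and MT-CO1 from 5515 to 12446 RPKM, so their ratio differed between libraries. MT-CYB was above MT-ND6 in 4 of 6 libraries and MT-ND6 above MT-ND5 in 5 of 6, so the order within this tier was not the same in every library. MT-TP (9.84 RPKM) and MT-ATP8 (6.13 RPKM) were the lowest. MT-ATP8 has 207 bases, shares 46 of them with MT-ATP6 and had only 9 to 32 counts per library, so its level depends on how the counting treated reads over both genes, which the sources used here do not state.

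**Figure D2:**
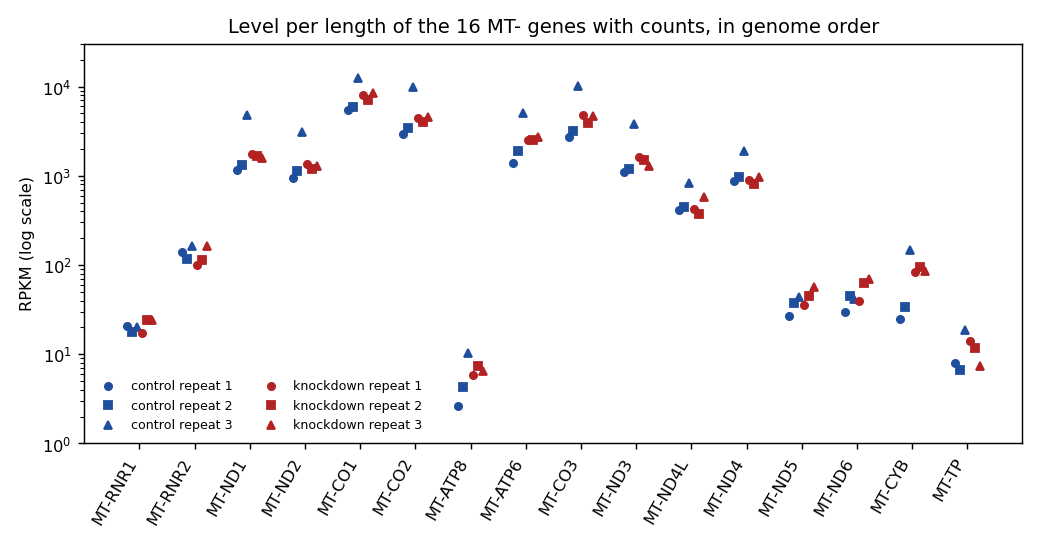
RPKM on a log axis of the 16 MT genes with counts, in genome order, with 1 symbol per library (blue for control, red for knockdown). MT-CO1 is highest with a median of 7543 RPKM, while MT-ND5, MT-ND6 and both rRNAs lie below most other genes, and the blue triangle of control repeat 3 stands apart upwards for some genes but not for these.

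The libraries were made after removal of rRNA, and the 2 mitochondrial rRNAs took only 1.33%, 0.990% and 0.548% of the MT counts in control repeats 1 to 3 and 0.653%, 0.862% and 1.02% in knockdown repeats 1 to 3. Control repeat 3 had the lowest share, and the groups overlapped (0.958% ± 0.394 against 0.846% ± 0.186, SD, n = 3, exact permutation p = 0.8). The difference of 0.111 percentage points turned to -0.0411 with the reads recovered for control repeat 2 and to -0.0771 without control repeat 1. MT-RNR2 was at 221, 173 and 244 CPM in the control and at 155, 186 and 266 CPM in the knockdown. MT-RNR1 was at 20.4, 16.2 and 18.6 CPM in the control and at 16.4, 24.1 and 24.0 CPM in the knockdown. For both rRNAs, control repeat 3 lay within the range of the other libraries, unlike for most of the protein genes. Whether the removal step took different amounts of these rRNAs from different libraries was not tested.

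The 3 complex IV genes carried most of the mitochondrial counts. MT-CO1 was at 8659, 8772 and 18434 CPM in control repeats 1 to 3 and at 12313, 11338 and 13772 CPM in knockdown repeats 1 to 3. MT-CO2, which receives electrons from cytochrome c, was at 2069, 2219 and 6458 CPM against 3044, 2839 and 3212 CPM. In each case the knockdown libraries lay between control repeats 1 and 2 on the low side and control repeat 3 on the high side. MT-CO3, a structural core subunit, had the same order at 2200, 2414 and 7736 CPM in the control and 3753, 3217 and 3811 CPM in the knockdown. MT-ATP6, the membrane subunit of ATP synthase that forms part of its proton path, was at 970, 1223 and 3264 CPM in the control and at 1696, 1767 and 1946 CPM in the knockdown. Its partner MT-ATP8 was at 0.555, 0.861 and 2.05 CPM against 1.21, 1.58 and 1.39 CPM, with the same order on very few counts.

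Cytochrome b of complex III, encoded by MT-CYB, showed the widest spread within the control. MT-CYB was at 28.6, 37.2 and 162 CPM in control repeats 1 to 3, and at 93.9, 112 and 102 CPM in knockdown repeats 1 to 3. The knockdown libraries were close to each other, whereas the controls lay on both sides of them.

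The 7 complex I genes did not behave alike. MT-ND1 was at 1125, 1217 and 4417 CPM in the control and at 1683, 1655 and 1594 CPM in the knockdown. MT-ND2 was at 999, 1131 and 3074 CPM against 1411, 1296 and 1416 CPM, and MT-ND3 at 392, 394 and 1274 CPM against 565, 536 and 466 CPM. For these 3 membrane subunits the knockdown again lay between the low and the high controls. MT-ND4 was at 1239, 1281 and 2540 CPM in the control and at 1247, 1165 and 1402 CPM in the knockdown. MT-ND4L was at 126, 127 and 238 CPM against 126, 114 and 180 CPM. For this overlapping pair, control repeats 1 and 2 were level with knockdown repeats 1 and 2, and control repeat 3 was the highest library. MT-ND5 was at 49.7, 64.9 and 75.3 CPM in the control and at 64.6, 85.4 and 106 CPM in the knockdown. MT-ND6 was at 16.04, 22.3 and 20.8 CPM against 20.6, 34.6 and 38.0 CPM. In these last genes control repeat 3 was not the highest library, and the 2 highest were knockdown repeats 2 and 3.

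Control repeat 3 was thus unevenly high. It exceeded the mean of control repeats 1 and 2 by a factor of 4.93 for MT-CYB, 3.77 for MT-ND1, 3.35 for MT-CO3, 3.01 for MT-CO2 and 2.12 for MT-CO1, on the normalized CPM scale. The factor was 1.31 for MT-ND5, 1.24 for MT-RNR2, 1.08 for MT-ND6 and 1.01 for MT-RNR1. It reached 2 in 10 of the 13 protein genes, against 6.43% of all genes tested. Control repeat 3 was the highest of the 6 libraries in 12 of the 16 members, against 22.1% of all genes tested. These figures describe 1 library and carry no replicate check.

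The FPKM column of control repeat 2 showed a like pattern. Whole reads could be recovered from it for 100% of 23593 genes (within 0.05 of a whole number), with a total of 16759253. Scaled to the library total, these reads exceeded the count column of the same library by a factor of 4.08 for MT-CYB, 3.56 for MT-ND1, 3.07 for MT-CO3 and 1.98 for MT-CO1, but stood at 0.892 of it for MT-ND5 and 0.801 for MT-ND6. MT-CO1 made up 37.5% of the MT protein counts in these reads and 38.6% in control repeat 3, against 46.4% in the count column of control repeat 2. The recovered total differs from that of each of the 6 libraries, so the column was not a copy of a deposited count column.

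**Figure D3:**
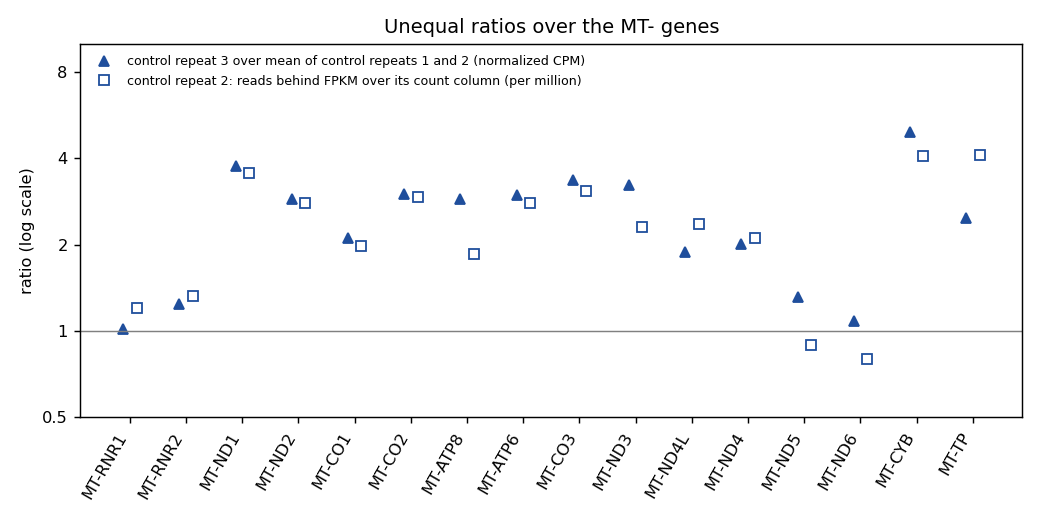
Ratios on a log axis for the 16 MT genes with counts: control repeat 3 over the mean of control repeats 1 and 2 (triangles) and, for control repeat 2, the reads recovered from its FPKM values over its count column (open squares). Both series are high for MT-CYB (4.93 and 4.08) and MT-ND1 (3.77 and 3.56) and between 0.801 and 1.32 for MT-ND5, MT-ND6 and the rRNAs.

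With all 6 libraries, 0 of the 16 MT genes were called between control and knockdown at an edgeR adjusted p under 0.05, where 0.0265% of the 15075 genes tested were called. At an unadjusted p under 0.05 the count was 1, MT-ND6, against 19.2% of all genes, of which 8.74% were lower and 10.4% higher in the control. DESeq2 also called 0 MT genes, where it called 6.31% of all genes at an adjusted p under 0.05. In 0 of 16 members did the groups not overlap in CPM, against 24.8% of all genes. The log2 fold changes of control over knockdown were above 0 for 9 members and below 0 for 7, with a median of 0.043 beside 0.036 for all genes.

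The largest positive log2 fold changes were those of MT-ND1 (0.45, SE 0.47, adjusted p = 0.625), MT-ND4 (0.41, SE 0.28, adjusted p = 0.447) and MT-ND3 (0.40, SE 0.42, adjusted p = 0.638). MT-ND6 had the largest negative one, at -0.66 (SE 0.25, adjusted p = 0.209), followed by MT-CYB at -0.44 (SE 0.56, adjusted p = 0.701) and MT-ND5 at -0.43 (SE 0.22, adjusted p = 0.327). MT-CO1 was at -0.06 (SE 0.29, adjusted p = 0.923) and MT-ATP6 at 0.01 (SE 0.40, adjusted p = 0.989). The standard errors of MT-ND1, MT-CYB, MT-CO3 and MT-ATP6 were larger than those of MT-ND5 and MT-ND6, whose controls lay closer together.

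The direction of most members turned on control repeat 3. Control repeats 1 and 2 were both below every knockdown library in 9 of the 13 protein genes, against 23.7% of all genes tested. This restates their lower MT share, and members of shared transcripts are not separate observations, so such counts are no test. Without control repeat 3, the fold change was below 0 for all 16 members, with a median log2 of -0.51 beside 0.0076 for all genes. In that fit 3 MT genes were called lower in the control, where 4.35% of 15449 genes were, and 10 of 16 had an unadjusted p under 0.05, against 29.6% of all genes. The called genes were MT-CYB with a log2 fold change of -1.65 (SE 0.18, adjusted p = 0.0038), MT-ATP6 with -0.72 (SE 0.16, adjusted p = 0.0293) and MT-CO3 with -0.64 (SE 0.15, adjusted p = 0.0332). Next came MT-ND1 at -0.49 (adjusted p = 0.0531), MT-CO2 at -0.50 (adjusted p = 0.0540) and MT-CO1 at -0.52 (adjusted p = 0.0568). MT-ND6 was at -0.70 (adjusted p = 0.135). Control repeat 3 was left out after its high MT share was seen. Its removal lowers the control level of most MT genes in advance, so these calls are not separate support for a difference. With the reads recovered from the FPKM values of control repeat 2, in contrast, 13 of 16 members were above 0, with a median log2 fold change of 0.56 beside 0.028 for all genes, and 0 were called. MT-ND1 was then at 1.00, MT-ND2 at 0.81, MT-ND4 at 0.77, MT-CO2 at 0.73, MT-ND3 at 0.72, MT-CO3 at 0.69 and MT-ATP6 at 0.50, while MT-ND6 was at -0.77 and MT-ND5 at -0.49. MT-CYB, at -1.65 without control repeat 3, was at 0.15 with these reads.

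**Figure D4:**
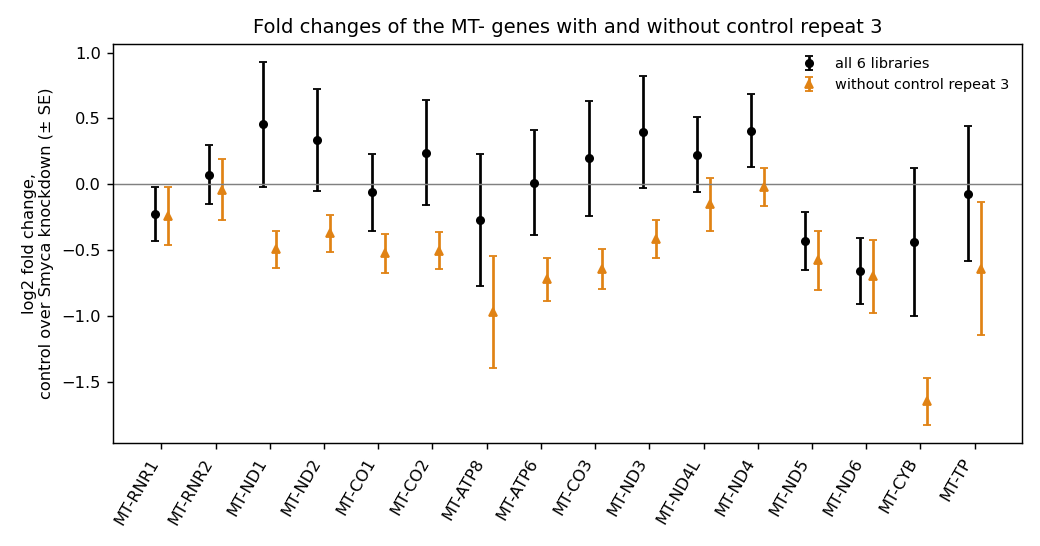
Log2 fold changes of control over Smyca knockdown for the 16 MT genes with counts, with bars of 1 SE, from all 6 libraries (black circles) and without control repeat 3 (orange triangles). Without that library all 16 values lie below 0 and MT-CYB moves from -0.44 to -1.65, while MT-ND6 and MT-RNR1 hardly move.

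The composition of the MT protein counts does not depend on the scaling of a library. MT-CO1 took 48.4%, 46.4% and 38.6% of these counts in control repeats 1 to 3, and 47.3%, 46.9% and 49.1% in knockdown repeats 1 to 3. MT-CO3 took 12.3%, 12.8% and 16.2% against 14.4%, 13.3% and 13.6%. Control repeat 3 was the outlying library in both, low for MT-CO1 and high for MT-CO3. In 4 of the 13 protein genes the shares of the groups did not overlap, with 2 higher and 2 lower in the control, beside 24.8% of all genes whose groups did not overlap in CPM. The latter is another measure, and 4 of 13 is not far above it. MT-ND4 took 6.93%, 6.78% and 5.32% in the control and 4.79%, 4.82% and 5.0% in the knockdown. MT-ND2 took 5.59%, 5.98% and 6.45% against 5.42%, 5.37% and 5.05%. These complex I genes had the higher shares in the control, and control repeat 3 was on the same side as its group. MT-CYB took 0.160%, 0.197% and 0.340% in the control and 0.361%, 0.465% and 0.364% in the knockdown. MT-ATP8, on 9 to 32 counts, was the other gene with the lower share in the control. In the reads recovered for control repeat 2, the shares were 5.84% for MT-ND4, 6.80% for MT-ND2 and 0.327% for MT-CYB, each on the same side of the knockdown as its count column. No gene can go below p = 0.1 in an exact permutation test of 3 against 3, and because shares add to a fixed sum, they are not independent of each other.

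MT-ND6, read from the opposite strand to the other protein genes, took 0.0898%, 0.118% and 0.0436% of the MT protein counts in control repeats 1 to 3 and 0.0793%, 0.143% and 0.136% in knockdown repeats 1 to 3. The groups overlapped, and control repeat 3 was lowest (exact permutation p = 0.3). The difference of -0.0355 percentage points was -0.0154 without control repeat 3, -0.0555 without knockdown repeat 1, -0.0236 without knockdown repeat 2 and -0.062 with the reads recovered for control repeat 2. Over the 6 measures of share and ratio tested in this way, including the MT protein share (2.90% against 2.54%, a difference of 0.357 percentage points) and the ratio to nuclear subunits given below, each Benjamini-Hochberg adjusted p was 1.0.

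Nuclear copies of mitochondrial DNA could hold some of the reads. In GRCh38, 56 blocks of at least 90% identity were found by BLAST, the longest at chr1:629081-634924, which matches bases 3911 to 9755 of the mitochondrial genome with 98.5% identity, from the end of MT-ND1 into MT-CO3. A second copy at chr5:134923309-134928527 matches bases 10269 to 15487 with 94.1% identity, from MT-ND3 into MT-CYB. The share of 150-base windows with an identical nuclear copy was 15.7% for MT-ND2, 14.5% for MT-CO1, 10.4% for MT-RNR1 and 1.12% for MT-ND1, and 0 for MT-RNR2 and each of the remaining protein genes. Reads with mismatches were not considered in this count, and MT-ATP6, with 0 identical windows, still had a nuclear copy gene with counts, as given next.

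Of 404 nuclear copy genes in the count tables, 354 were at 0 counts in all libraries and 3 had at least 100 counts in a library. The counts of MTATP6P1 came to 9.97% to 12.7% of those of MT-ATP6, those of MTND2P28 to 2.18% to 3.04% of MT-ND2 and those of MTCO1P12 to 0.509% to 0.738% of MT-CO1. MTATP6P1 and MTND2P28 were 2.82 and 2.77 times as high in control repeat 3 as in the mean of control repeats 1 and 2, beside 2.98 and 2.89 for their mitochondrial counterparts, while MTCO1P12 stood at 1.59 beside 2.12. The 3 copy genes had log2 fold changes of -0.08, 0.03 and -0.32 between control and knockdown, and 0 were called. How reads that match both genomes were assigned is not given in the sources used here.

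Nuclear-encoded subunits of the same complexes did not share the high counts of control repeat 3. Summed over complexes I, III, IV and V, they were at 7134, 7651 and 8257 CPM in control repeats 1 to 3 and at 8357, 9177 and 7969 CPM in knockdown repeats 1 to 3, with control repeat 3 inside the range of the knockdown. The summed counts of the MT protein genes were 2.51, 2.47 and 5.78 times these in the control and 3.11, 2.63 and 3.52 times in the knockdown. As log2 ratios the groups were at 1.72 ± 0.702 and 1.62 ± 0.210 (SD, n = 3), with p = 1.0 in the exact permutation test, with a difference of 0.10. Without control repeat 3 the difference was -0.30, and with the reads recovered for control repeat 2 it was 0.49. By complex, the log2 ratio of control repeat 3 was 2.12 for complex I, -3.04 for complex III, 4.48 for complex IV and 0.22 for complex V, and in each it was the highest of the 6 libraries.

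**Figure D5:**
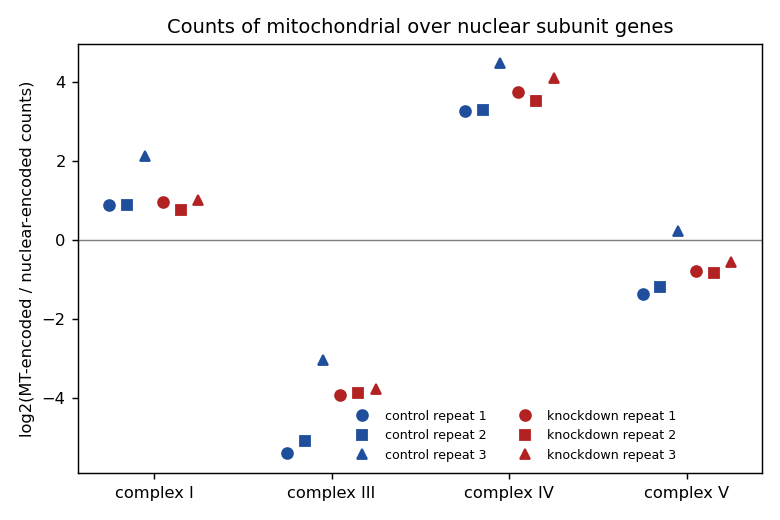
Log2 of MT-encoded over nuclear-encoded subunit counts for complexes I, III, IV and V, with 1 symbol per library (blue for control, red for knockdown). Control repeat 3 is the highest library in every complex, at 4.48 for complex IV, and complex III is below 0 throughout because its only MT gene, MT-CYB, has few counts.

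Of the 74 nuclear subunit genes listed, 73 passed the filter, 0 were called, and 24 were higher and 49 lower in the control by fold change. The higher and lower genes numbered 8 and 28 in complex I, 3 and 6 in III, 7 and 4 in IV, and 6 and 11 in V. An unadjusted p under 0.05 was reached by 1 gene higher and 3 lower in the control, against 10.4% and 8.74% of all genes, and the median log2 fold change was -0.10 beside 0.036 for all genes. CYC1, the cytochrome c1 partner of MT-CYB in complex III, was at 252, 293 and 377 CPM in the control and at 503, 632 and 388 CPM in the knockdown, with a log2 fold change of -0.72 (SE 0.22, adjusted p = 0.148). Its groups did not overlap, whereas those of MT-CYB did. Groups did not overlap in 2 of the 9 nuclear complex III genes and in 15 of the 73 nuclear subunit genes, against 24.8% of all genes.

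The genes that copy, transcribe and translate mitochondrial DNA were listed as well, and 0 of them were called. Of 20 mitochondrial DNA maintenance genes tested, 16 were lower in the control, 8 of them with an unadjusted p under 0.05, and 1 of the 4 higher ones had such a p, against 8.74% lower and 10.4% higher with such a p among all genes. Of 41 genes of mitochondrial transcription and RNA processing, 31 were lower in the control, 6 with an unadjusted p under 0.05, and 0 of the 10 higher ones had one. Of 77 mitochondrial ribosomal protein genes, 63 were lower, 13 with an unadjusted p under 0.05. The median log2 fold changes were -0.34, -0.14 and -0.17 in these 3 lists, beside 0.036 for all genes.

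TFAM, which packs mitochondrial DNA and is needed to start its transcription, was at 129, 160 and 163 CPM in the control and at 210, 220 and 227 CPM in the knockdown. The groups did not overlap, and the log2 fold change was -0.54 (SE 0.15, adjusted p = 0.130). RNASEH1, which removes RNA from RNA:DNA hybrids, was at 27.8, 28.9 and 27.5 CPM against 39.8, 40.9 and 41.2 CPM, with a log2 fold change of -0.53 (SE 0.13, adjusted p = 0.124). POLG2, the accessory subunit of the mitochondrial DNA polymerase, had the opposite sign, at 34.4, 31.3 and 37.01 CPM against 20.4, 22.0 and 26.8 CPM (log2 fold change 0.57, SE 0.17, adjusted p = 0.142). In TFAM, RNASEH1 and POLG2, control repeat 3 was on the same side as the other controls. MGME1, a nuclease of mitochondrial DNA, had the largest negative log2 fold change among the named maintenance genes (-0.79, SE 0.38, adjusted p = 0.299), at 16.7, 19.6 and 51.2 CPM in the control and at 47.9, 54.9 and 48.5 CPM in the knockdown. ATAD3A, a membrane ATPase of mitochondria, was at 123, 154 and 202 CPM against 195, 282 and 258 CPM (log2 fold change -0.62, SE 0.22, adjusted p = 0.187). In MGME1 and ATAD3A, control repeat 3 lay within the range of the knockdown, so the groups overlapped.

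RNA of other kinds was listed beside the MT genes. RN7SL2, an RNA of the signal recognition particle, was at 1334, 1247 and 378 CPM in control repeats 1 to 3 and at 1550, 1869 and 2272 CPM in knockdown repeats 1 to 3, so control repeat 3 was lowest where most MT protein genes were highest (log2 fold change -0.94, SE 0.41, adjusted p = 0.254). MALAT1, a nuclear-retained RNA, was at 310, 292 and 397 CPM in the control and at 182, 161 and 231 CPM in the knockdown, without overlap (log2 fold change 0.80, adjusted p = 0.119). NEAT1, another nuclear-retained RNA, was at 354, 250 and 253 CPM against 142, 99.2 and 67.7 CPM, also without overlap (log2 fold change 1.47, adjusted p = 0.111). The groups overlapped for TUG1 (0.10, adjusted p = 0.736) and KCNQ1OT1 (0.0049, adjusted p = 0.990), the other nuclear-retained RNAs tested. The part of RNA composition in the MT levels of control repeat 3 was not tested.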

How the data were processed

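RNA-seq of 3 control shRNA and 3 Smyca shRNA #1 libraries given as MDA-MB-231 cells was analysed. The authors removed rRNA, made strand-specific libraries, sequenced 150-base paired ends, mapped them to hg38 with TopHat2 2.0.12 (per the labels) and counted reads per gene with HTSeq, whose settings are not given in the sources used here. The labels name Trizol for RNA extraction and the study's methods a column kit. The authors deposited a read count and an FPKM per gene and library; the count was used for every test, and the FPKM only to check the files and to recover whole reads for control repeat 2.

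Symbols came from GENCODE release 44 (57532 of 58302 IDs matched). Counts were tested with edgeR 4.0.16 in R 4.3.3 (TMM, filterByExpr, quasi-likelihood test, group only, Benjamini-Hochberg adjustment over all 15075 genes tested). The SE is the log2 fold change divided by the root of F. The spread between repeats beyond counting noise was 25.2% (biological coefficient of variation). Single measures were compared by two-sided exact permutation tests. RPKM were computed from the counts. Nuclear copies were found with blastn 2.17.0 (word size 28). The code was tested on simulated data.

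Alternatives were RLE size factors, total counts, scaling without MT genes, other filters, DESeq2 1.42.0, the replicate block, the reads behind the FPKM, and each library left out. Values per library are given for each member with counts. Of the other lists, genes with the largest fold changes in each direction at a mean of at least 10 CPM could be named, and Smyca. The marker genes, of which 1 is not reported here, were used only to check the cell line, and the 3 nuclear copy genes were named, after their values were seen, because they had at least 100 counts in a library. The members and lists were chosen with earlier results of these data known. The 13 listed MTRNR2L genes were not analysed here.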

Additional observations from a re-analysis of the deposited data

How the results depend on the processing

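Over the whole table, 4 genes were called; 8 were called with total counts, 916 with no filter beyond 1 count, 951 with DESeq2, 10 with the reads behind the FPKM of control repeat 2, 0 with the replicate block, and 0 to 1691 with 1 library left out. The number of MT genes called was 0 to 3 with 1 library left out (3 only without control repeat 3) and 0 under each other alternative. The difference in MT share ranged from -0.677 to 0.930 percentage points with 1 library left out, and that of the MT protein share from -0.677 to 0.928. With the FPKM reads these differences were 1.31 and 1.31, and with the TMM-scaled library size 0.209 and 0.208. The rRNA difference was 0.111, -0.0411 with the FPKM reads and -0.0771 to 0.316 with 1 library left out. The tRNA difference was -0.00034, turning to 0.000176 with the FPKM reads and ranging from -0.000888 to -2.1e-06 with 1 library left out. The log2 ratio to nuclear subunits turned from 0.10 to -0.027 as a mean of log2(CPM + 1), and ran from -0.30 to 0.31 with 1 library left out. Among single genes, the FPKM reads turned MT-CYB to 0.15, MT-CO1 to 0.25, MT-TP to 0.62 and MT-ATP8 to 0.0084 (log2). Total counts turned MT-CO1 to 0.016. MT-ATP6 went to -0.0027 with RLE size factors or DESeq2, -0.027 without a filter and -0.20 with the block, and MT-CO3 to -0.065 with the block. The block also moved MT-CYB from -0.44 to -0.91, MT-CO2 from 0.24 to 0.023, MT-ND1 from 0.45 to 0.13, MT-ND2 from 0.34 to 0.13, MT-ND3 from 0.40 to 0.14, MT-CO1 from -0.06 to -0.15, MT-ATP8 from -0.27 to -0.42 and MT-TP from -0.07 to -0.15. With 1 library left out, the log2 fold changes ranged from -0.49 to 0.78 (MT-ND1), -0.37 to 0.61 (MT-ND2), -0.41 to 0.67 (MT-ND3), -0.15 to 0.44 (MT-ND4L), -0.018 to 0.59 (MT-ND4), -0.52 to 0.13 (MT-CO1), -0.50 to 0.52 (MT-CO2), -0.64 to 0.50 (MT-CO3), -0.72 to 0.32 (MT-ATP6), -0.97 to 0.062 (MT-ATP8), -1.65 to -0.047 (MT-CYB), -0.60 to -0.25 (MT-ND5), -0.89 to -0.49 (MT-ND6), -0.40 to -0.14 (MT-RNR1), -0.095 to 0.31 (MT-RNR2) and -0.64 to 0.20 (MT-TP). The cause was not tested. Correlations between control and knockdown libraries of the same number were 0.0811, 0.0875 and 0.0016, and those of different numbers ran from -0.177 to 0.0758. With 3 libraries per group, they cannot settle whether the numbers pair the libraries. A filter of at least 10 counts in every library left 14 members.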
